A study of Mus musculus with 4 samples.

Results

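The 4 libraries of this series carry mouse numbers in their titles, 7983 and 7984 on one side and 3911 and 3914 on the other. Each number pair holds 1 control and 1 Rax iCKO mouse, so that all 4 of 4 libraries enter the comparison of the pairs and genotype can be held in the same model. The labels do not say that a number pair stands for a litter, a day or a preparation, and the pairs are called by their numbers here. Mice 7984 and 3911 are controls, Raxflox/WT with Rlbp1-CreERT2 and the reporter R26-CAG-LoxP-mTFP1, and mice 7983 and 3914 are Rax iCKO, Raxflox/flox with the same 2 transgenes. Every mouse, controls included, received tamoxifen at postnatal day 4 and was harvested at postnatal day 14, and the labels give the background as 129S6. The retina was dissociated with papain and cells positive for mTFP1 were sorted, 1 library per mouse. CreERT2 is driven by a fragment of the Rlbp1 promoter, and recombination in this line was also seen in the pigment epithelium, so the sort marks a promoter's activity and not 1 cell type. The design leaves 2 libraries for each number pair, where an exact two-sided permutation test cannot go below p = 0.333, and a fitted model that shares the spread across genes was used instead.

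Müller glia are the radial support cells of the retina. They take up glutamate, return retinoids to photoreceptors, buffer potassium and surround every neuron from the inner to the outer limiting membrane, so fragments of neurons often stay attached when the tissue is taken apart. Rax is a homeobox transcription factor of the early eye that stays on in Müller glia. A sorted pool therefore reports the glia together with whatever rods, bipolar cells, microglia or vessel cells came through with them, and the make-up of that pool can differ between animals of the same genotype. In such bulk libraries fewer cells of a type and less RNA per cell cannot be told apart.

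Expression was given by the authors as FPKM, fragments scaled to transcript length and to the mapped reads of the library, for 24322 gene symbols per library. A gene was tested when its mean over the 4 libraries was at least 1 FPKM, which left 12363 genes. Differences are in log2(FPKM + 1), as the mean of mice 3911 and 3914 minus the mean of mice 7983 and 7984, and the pseudocount makes changes of low genes look smaller. Where 4 FPKM values are given for a gene they stand in the order 7983 (Rax iCKO), 7984 (control), 3914 (Rax iCKO) and 3911 (control). A gene was called at an adjusted p below 0.05 in limma with Benjamini-Hochberg adjustment over all tested genes. Read totals are not given in the files. From the low values, library 7984 came out 1.35 times as deep as library 7983, and libraries 3914 and 3911 came out at 0.987 and 0.983 of the depth of 7983. The labels give no sex. Xist, the RNA that coats the inactive X chromosome and here chosen after its values were seen, stood at 0.0119, 24.5, 0.00610 and 21.2 FPKM, near 0 in both Rax iCKO libraries and high in both controls, and the Y-linked genes Eif2s3y and Ddx3y, given below, were above 0 in mouse 7983 alone. The Rax iCKO library of mouse 3914 thus held almost no Xist and none of these 2 Y-linked transcripts, and its part in the differences was not tested beyond the values without that library. The 4 libraries listed between 7870 and 8720 symbols at 0. Markers of Müller glia were high in each of them, with Rlbp1, the retinaldehyde carrier whose promoter drives the Cre, at 1292, 2616, 1560.2 and 2159 FPKM, but neuronal transcripts were abundant as well. The 20 bipolar cell markers summed to 7233, 5254, 10325 and 12214 FPKM, against 14115, 20718, 14188 and 17014 FPKM for the 20 Müller glia markers.

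The number pairs differed more widely than the genotypes. Of the 12363 tested genes 2322 were called between the pairs, which is 18.8% of them. The called genes comprised 1224 that were higher in 3911 and 3914, or 9.9%, and 1098 that were lower, or 8.88%. In the same model 24 genes, or 0.194%, were higher in Rax iCKO and 47 genes, or 0.38%, were lower. Called by both factors were 21 genes, 2301 were called for the number pair alone and 50 for the genotype alone. Of the total sum of squares of log2(FPKM + 1), 54.5% lay between the number pairs, 27.4% between the genotypes and 18.04% in the remainder. Each part has 1 degree of freedom, so libraries that followed neither factor would on average give equal parts. Across the tested genes the libraries correlated at 0.970 within each number pair and at 0.947 to 0.955 between pairs, the 2 values for libraries of the same genotype in different pairs being 0.955 and 0.952. The pair difference exceeded the genotype difference in size in 7874 genes.

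The differences between the pairs ran in the same direction in both genotypes for most genes. The control libraries (3911 minus 7984) and the Rax iCKO libraries (3914 minus 7983) share no sample, and their differences correlated at r = 0.503 over the 12363 genes, given as a description because genes are not independent replicates. The sign was the same in 9063 genes, or 73.3%. Among the called genes, which the model picks for that property, it was the same in 2290 of 2322. Both libraries of one pair lay above both of the other in 3594 genes for 3911 and 3914, or 29.1%, and below in 3319 genes, or 26.8%. Of the called genes 1187 were higher and 1054 lower without overlap, whereas 81 overlapped, and 30 called entries were above 0 in a single library.

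**Figure D1:**
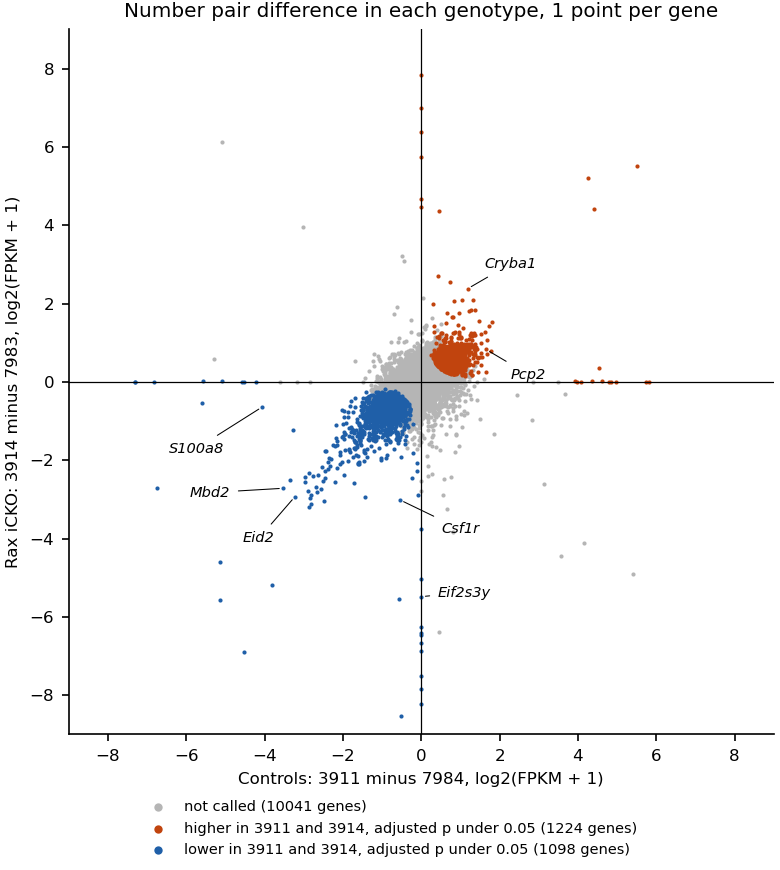
Difference between the number pairs in log2(FPKM + 1), control mouse 3911 minus 7984 on the horizontal axis and Rax iCKO mouse 3914 minus 7983 on the vertical axis, 1 point per tested gene, with the 1224 genes called higher and the 1098 called lower in colour. Most called genes lie in the quadrants where both genotypes moved the same way, while points on an axis, such as Eif2s3y, changed in 1 genotype only.

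The model has 1 residual degree of freedom and takes most of its spread from other genes, with a prior of 11.3 degrees of freedom. The count of calls moved with the settings: 746 genes were called with no filter on low genes, 936 without the variance trend, 346 with genotype left out, and between 42 and 139 when 1 library was left out. With the library medians set equal, 1946 genes were higher and 1005 lower.

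The largest differences were falls. At least 2-fold lower and called were 356 genes, against 98 that were at least 2-fold higher. Mbd2, which binds methylated CpG and belongs to a repressor complex, stood at 21.4, 23.9, 2.41 and 1.18 FPKM, a difference of -3.12 ± 0.23 (SE; limma adjusted p = 4.97e-06). Eid2, an inhibitor of the acetyltransferase p300, stood at 32.2, 37.1, 3.36 and 3.07 FPKM (-3.08 ± 0.18; limma adjusted p = 7.58e-07). Rab21, a small GTPase of early endosomes, stood at 28.8, 24.7, 2.45 and 2.65 FPKM (-2.96 ± 0.19; limma adjusted p = 1.70e-06). In all 3 genes both libraries of 7983 and 7984 stood far above both of the other pair, where the 2 genotypes were close for Eid2 and Rab21 and about 2-fold apart for Mbd2. Sepn1, a selenoprotein of the endoplasmic reticulum, stood at 62.5, 59.4, 10.2 and 4.88 FPKM (-2.93). Gna12, the alpha subunit of a heterotrimeric G protein, stood at 36.2, 47.1, 3.77 and 5.71 FPKM (-2.90). The Y-box RNA-binding protein Ybx3 stood at 50.5, 47.8, 6.50 and 5.61 FPKM (-2.83). These 3 genes were also separated without overlap. Gprin1, which acts in neurite outgrowth, stood at 25.3, 20.5, 2.21 and 2.81 FPKM (-2.77). The Golgi protease Sppl3 stood at 61.8, 63.5, 9.68 and 7.20 FPKM (-2.77). Zdhhc18, a palmitoyltransferase, stood at 16.3, 16.3, 1.46 and 1.71 FPKM (-2.74). None of the 9 genes was called for genotype, with limma adjusted p values between 0.24 for Gna12 and 0.975 for Gprin1.

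The entries of a non-coding RNA and a mitochondrial enzyme were among the largest falls too. Rpph1, the RNA of ribonuclease P, stood at 12.7, 30.1, 0.858 and 3.45 FPKM (-2.84), and it was also lower in Rax iCKO (-1.22, limma adjusted p = 0.0223). The entry Lars2, the mitochondrial leucyl-tRNA synthetase, stood at 1161, 1786, 179 and 275 FPKM (-2.69 ± 0.15, limma adjusted p = 5.32e-07) and was the most abundant of these genes. FPKM per gene symbol do not show which part of an entry the reads came from, and whether these are reads of the enzyme's mRNA was not tested. The last of the 12, the Y-linked translation factor Eif2s3y, was listed at 43.7, 0, 0 and 0 FPKM, and the Y-linked helicase Ddx3y at 12.4, 0, 0 and 0 FPKM. Both were called, with limma adjusted p = 0.0377 and 0.0496, on the single library of mouse 7983, and the groups overlap at 0.

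The largest rises were smaller. Of all genes called higher, 644 lay in the quintile with the highest mean level (44.8 FPKM and over) and 37 in the lowest, but 11 of the 12 largest rises, all except Pcp2, were in genes with a mean of at most that of Emc8-1190005i06rik (23.3 FPKM). Amy1, an amylase, stood at 7.10, 6.01, 27.3 and 15.3 FPKM (1.51 ± 0.19; limma adjusted p = 5.12e-04), and reads of the near-identical amylase copies may be shared. Nupr1, a stress-induced nuclear protein, stood at 8.73, 9.99, 27.6 and 29.7 FPKM (1.52 ± 0.16; limma adjusted p = 1.33e-04). Both libraries of 3911 and 3914 were above both others in each gene. The entry Emc8-1190005i06rik, which overlaps Emc8, stood at 11.7, 12.7, 25.6 and 42.98 FPKM (1.37). Hmgn5, a nucleosome-binding protein, stood at 7.07, 9.71, 17.5 and 26.9 FPKM (1.29). Kcnip4, a potassium channel partner, stood at 8.41, 4.40, 21.3 and 12.1 FPKM (1.26). In these 3 as well the pairs did not overlap. Esf1, a nucleolar protein of ribosome assembly, stood at 3.55, 3.62, 8.13 and 12.2 FPKM (1.26). Gnat3, the taste transducin alpha subunit, stood at 5.99, 4.68, 11.1 and 18.6 FPKM (1.29). The transcript Hk1os, which lies opposite to Hk1, stood at 1.49, 5.52, 9.66 and 12.4 FPKM (1.57), and without strand information its reads cannot be told from those of Hk1. BB283400 stood at 3.83, 3.03, 13.1 and 13.01 FPKM (1.67). Pcp2, a bipolar cell regulator of G proteins, stood at 2727, 2071, 4846 and 6515 FPKM (1.24 ± 0.23; limma adjusted p = 0.00417) and was by far the most abundant gene among the 12 largest rises. The remaining 2 entries, the pseudogene Apoo-ps at 8.56, 0.00330, 11.3 and 22.4 FPKM and the spliceosomal RNA Rnu12 at 9.58, 0, 9.76 and 19.6 FPKM, rested on low values in control mouse 7984, since the Rax iCKO libraries differed by only 0.37 and 0.024 on the log2 scale.

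**Figure D2:**
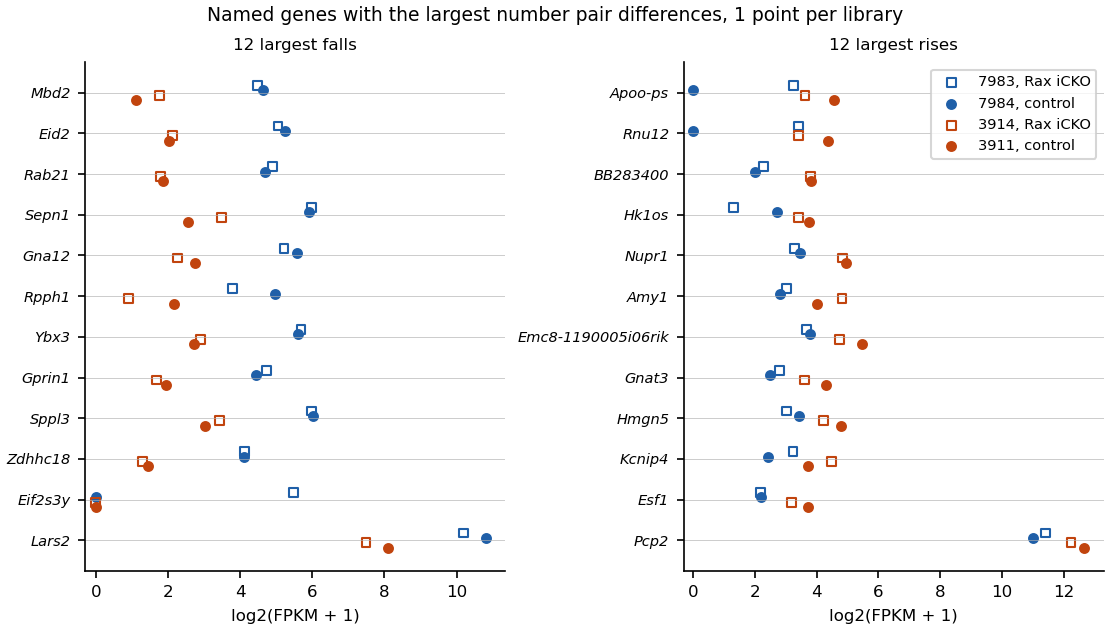
log2(FPKM + 1) in each of the 4 libraries for the 12 genes with the largest fall and the 12 with the largest rise from 7983 and 7984 (blue) to 3914 and 3911 (red), squares for Rax iCKO and circles for control. Blue and red points are apart in 11 of the 12 falls, Eif2s3y being the exception, and in all 12 rises, with the narrowest gap in Rnu12 (9.58 against 9.76 FPKM).

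The start of the coding sequence was rich in G and C in some of the largest falls, but also in some rises. As examples, the first 120 coding bases are printed for Eid2 and Rab21, from among the largest falls, and for Amy1 and Emc8-1190005i06rik, from among the largest rises. They are from GENCODE M21 on GRCm38, 5′ to 3′ with G and C in capitals. The Eid2 stretch is at chr7:28267955-28268074 on the plus strand and holds 79.2% G and C. The Rab21 stretch, at chr10:115315227-115315346 on the minus strand, holds 73.3%. Amy1, at chr3:113569893-113570012 on the minus strand, holds 46.7%, and Emc8-1190005i06rik, at chr8:120667859-120667978 on the minus strand, holds 67.5%.
Eid2: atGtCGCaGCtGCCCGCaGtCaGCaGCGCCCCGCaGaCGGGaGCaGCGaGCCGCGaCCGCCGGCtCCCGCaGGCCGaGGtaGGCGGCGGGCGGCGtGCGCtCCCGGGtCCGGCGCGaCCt
Rab21: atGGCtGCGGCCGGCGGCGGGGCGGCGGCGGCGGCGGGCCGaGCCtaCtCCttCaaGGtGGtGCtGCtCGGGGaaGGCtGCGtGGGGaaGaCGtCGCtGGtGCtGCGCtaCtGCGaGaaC
Amy1: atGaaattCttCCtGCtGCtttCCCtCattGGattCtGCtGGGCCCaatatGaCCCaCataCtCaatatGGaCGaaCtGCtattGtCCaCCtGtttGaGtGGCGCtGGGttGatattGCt
Emc8-1190005i06rik: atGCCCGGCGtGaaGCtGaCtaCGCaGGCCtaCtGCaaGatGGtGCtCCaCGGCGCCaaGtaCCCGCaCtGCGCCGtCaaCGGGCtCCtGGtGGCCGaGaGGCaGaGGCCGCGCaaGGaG
The shares over the whole coding sequence are lower, 71.9% in Eid2, 50.8% in Rab21, 43.8% in Amy1 and 62.8% in Emc8-1190005i06rik, so that Rab21 lies below the median of 53.1% over all tested coding genes. The whole transcript of Rab21 has 4602 bases and 42.7% G and C, while Emc8-1190005i06rik has 758 bases and 65.3%.

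Short transcripts were higher and long transcripts rich in G and C were lower in 3911 and 3914. Transcript length and composition were found in GENCODE M21 for 12290 of the 12363 tested genes, or 99.4%, from the longest coding transcript or, for 547 entries without a coding sequence, the longest transcript. In the shortest quintile of the genes (up to 1714 bases) the median difference was 0.31, with 682 of 2458 genes called higher and 82 lower. In the longest quintile (5081 bases and over) the median was -0.23, with 58 called higher and 386 lower. The quintiles between fell in order at 0.12, -0.0050 and -0.13, and Spearman's rank correlation between length and difference was -0.42. Genotype went with length the other way, with medians from -0.16 in the shortest to 0.14 in the longest quintile and a rank correlation of 0.34. G and C content added to length: within the longest quintile the median went from -0.0090 in the quintile poorest in G and C to -0.63 in the richest, where 89 of 222 genes were called lower and 1 higher. In the shortest quintile the same range was 0.34 to 0.23. The 322 coding genes that were called and at least 2-fold lower had a median transcript of 4446 bases, a coding G and C content of 57.4% and a 5′UTR content of 75.1%. For the 64 that were at least 2-fold higher these medians were 1602 bases, 48.6% and 58.2%, and for all 11743 coding genes 3168 bases, 53.1% and 64.8%. These points share their libraries, and length, composition and level are themselves related, so no p is given.

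**Figure D3:**
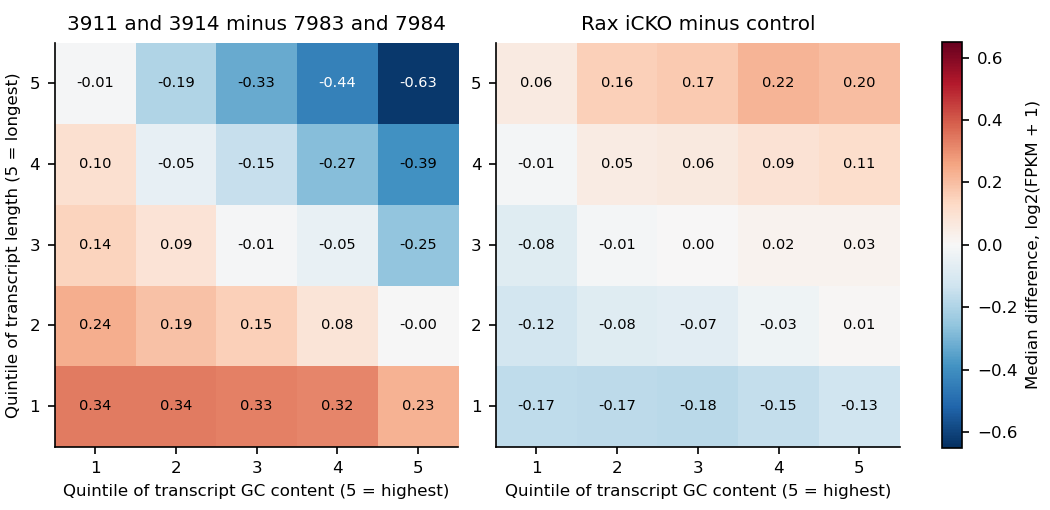
Median difference in log2(FPKM + 1) for genes grouped by quintile of transcript length (vertical) and quintile of transcript G and C content (horizontal), for the number pairs on the left and for the genotypes on the right, red for positive and blue for negative. The number pair medians run from 0.34 in short transcripts to -0.63 in long transcripts rich in G and C, and the genotype medians run from -0.18 in short to 0.22 in long transcripts.

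For the gene groups with most calls the value is also given after a smooth trend with length and G and C content, fitted in each library, had been taken out of 12216 genes with transcripts of at least 300 bases. In those 12216 genes 1617 were called higher and 1500 lower before the trend was removed and 897 and 853 after it. Of the 2322 calls, 1209, or 52.1%, were called in the same direction after it. The trend fit was chosen after these patterns had been seen, and it also removes any biology that goes with length, so its part in each group was not tested.

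Müller glia genes were lower in 3911 and 3914 for 9 of 20 tested markers and higher for 0, against backgrounds of 8.88% and 9.9%. Their median difference was -0.38, beside 0.0070 over all tested genes. Abca8a, a lipid transporter, stood at 114, 149.98, 51.6 and 58.4 FPKM (-1.24 ± 0.14; limma adjusted p = 1.62e-04). Sox2, a transcription factor of progenitors and glia, stood at 24.6, 26.9, 9.99 and 12.8 FPKM (-1.12 ± 0.16; limma adjusted p = 0.00129). In both genes the pairs lay well apart in either genotype. Kcnj10, the potassium channel of glial endfeet, stood at 74, 85.97, 46.5 and 34.98 FPKM (-0.97), and Rdh10, a retinol dehydrogenase, at 212, 294, 125 and 193 FPKM (-0.68). The transcription factors Lhx2, at 59.4, 84, 48.4 and 46.9 FPKM (-0.56), and Sox9, at 49.1, 58.7, 33.01 and 43.3 FPKM (-0.49), were lower without overlap. The glutamate transporter Slc1a3, at 1035, 1334, 618 and 939 FPKM, and the markers Gpr37 and Pdpn complete the 9.

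The most abundant glial transcripts did not pass the test. Apoe, a lipid carrier, stood at 3901, 5041, 4193 and 4232 FPKM (limma adjusted p = 0.833), and the acyl-CoA binding protein Dbi at 1824, 2777, 2167 and 3499 FPKM (limma adjusted p = 0.286). Rlbp1 (difference -0.0024, limma adjusted p = 0.996) and glutamine synthetase Glul, at 1002, 1702, 1197 and 1121 FPKM (limma adjusted p = 0.582), overlapped between the pairs. Vim, an intermediate filament, stood at 197, 273, 159 and 232 FPKM (-0.27, limma adjusted p = 0.176). After removal of the length and composition trend 10 of the 20 markers were lower, 7 of them among the 9 and without Lhx2 and Sox9, and the median was -0.36, and over the scalings tried it lay between -0.57 and -0.30. The genotype median over the same 20 genes was -0.36, with 0 calls in either direction.

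The reporter and the Cre went in opposite directions without a call. The mTFP1 entry, the colour the cells were sorted on, stood at 2199, 2992, 4483 and 3339 FPKM (difference 0.59, limma adjusted p = 0.0855), and the Cre entry at 61.02, 63.7, 44.9 and 52.05 FPKM (-0.36, limma adjusted p = 0.0854). Both libraries of 3911 and 3914 were above both others for mTFP1 and below them for Cre.

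Bipolar cell genes were higher in 3911 and 3914, with 7 of 20 tested markers called higher and 0 lower, against 9.9% and 8.88% of all tested genes, and a median of 0.33. Pcp2 has been given above. Isl1, a homeobox factor of ON bipolar cells, stood at 356, 220.2, 506 and 591 FPKM (0.96 ± 0.19; limma adjusted p = 0.0064). Gng13, a G protein gamma subunit, stood at 1836, 1337, 2278 and 2742 FPKM (0.67 ± 0.20; limma adjusted p = 0.0383). Within each genotype the 3911 or 3914 library was above its partner, and the control difference was the larger, 1.42 against 0.51 for Isl1. Grik1, a kainate receptor of OFF bipolar cells, stood at 21.8, 13.9, 38.3 and 29.3 FPKM (0.91). Scgn, a calcium sensor of cone bipolar cells, stood at 155, 133, 267 and 235 FPKM (0.80). Cabp5 and Lrtm1 were the other members called. The trend-removed median was 0.40 with 7 of 20 called higher, 6 of them among the 7 called before and without Gng13 (0.37, limma adjusted p = 0.113), and the genotype median was 0.34 with 0 calls. Among neurogenic factors, Neurod4 at 517, 335, 638 and 621 FPKM (0.60) and Hes6 at 76.2, 71.4, 109 and 129 FPKM (0.68) were higher and the Notch ligand Dll1 at 4.76, 4.74, 1.83 and 2.84 FPKM (-0.80) was lower, 3 calls in 10 tested genes beside 18.8% of all tested genes called in either direction, of which Hes6 alone was called with the trend removed.

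Cone markers that were called were higher and rod markers that were called were lower in 3911 and 3914. Of 10 tested cone markers 3 were higher and 0 lower, against 9.9% and 8.88% of all tested genes, with a median of 0.39 (0.20 with the trend removed). The cone transducin gamma subunit Gngt2 stood at 45.9, 53, 82.7 and 90.5 FPKM (0.80), Ccdc136 at 53.4, 42.3, 88.1 and 68.9 FPKM (0.70) and the guanylate cyclase activator Guca1a at 18.8, 18.9, 25.1 and 30.8 FPKM (0.54). These 3 did not overlap between pairs, and Guca1a lost its call with the trend removed (0.23, limma adjusted p = 0.251). Gnb3, the most abundant marker of the list and also present in bipolar cells, stood at 1377, 965, 1713 and 1472 FPKM (0.46, limma adjusted p = 0.0767). Of 24 tested rod markers 0 were higher and 4 lower, with a median of -0.27. Rod transducin Gnat1 stood at 224, 386, 143 and 262 FPKM (-0.60), the rod factor Nrl at 17.1, 26.2, 8.97 and 16.7 FPKM (-0.74) and Reep6 at 44.9, 67.5, 25.03 and 42.3 FPKM (-0.74). Gnat1 overlapped between the pairs and was also lower in Rax iCKO, with a genotype difference of -0.82 (limma adjusted p = 0.0223). The 2 most abundant rod markers, arrestin Sag at 403, 548, 453 and 737 FPKM and Pde6g at 280.2, 439, 219 and 395 FPKM, were not called for the pair (limma adjusted p = 0.18 and 0.23). With the trend removed 5 of the 24 were lower, 3 of them among the 4, with a median of -0.27. For genotype 4 of the 24 were also called lower in Rax iCKO and 0 higher, against 0.38% and 0.194% of all tested genes, with a median of -0.58.

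Microglial genes were low in 1 library. The 20 microglial markers summed to 167, 104, 31.5 and 114 FPKM, so that Rax iCKO mouse 3914 held the least. Of 16 tested genes 4 were called lower, against 8.88% of all tested genes, and 0 higher, with a median of -0.81. C1qa, which encodes a chain of complement C1q, stood at 7.94, 4.46, 0.853 and 4.04 FPKM, and C1qc, which encodes another chain, at 18.6, 11.8, 1.64 and 11.1 FPKM. Csf1r, the receptor that microglia need to survive, stood at 10.8, 5.21, 0.467 and 3.25 FPKM, and the protease Ctss at 24.8, 16.3, 3.71 and 13.8 FPKM. In the 2 controls the median difference over the 16 genes was 0.058 and in the 2 Rax iCKO libraries it was -1.65, so most of the difference lay in mouse 3914. Leaving out any 1 of the 4 libraries ended all 4 calls, and without mouse 3914 the differences were between -1.01 and -0.39. With the trend removed 6 of the 16 genes were lower, 3 of them among the 4, with a median of -1.01. Haemoglobin transcripts had the same shape, with Hba-a1 at 8.52, 3.79, 0 and 6.54 FPKM and Hbb-b1 at 5.66, 4.19, 0.243 and 7.77 FPKM, neither of them called.

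Smaller cell classes gave few tested genes, too few to set against the 9.9% higher and 8.88% lower of all tested genes. The neutrophil proteins S100a8, at 0.556, 15.7, 0 and 0 FPKM, and S100a9, at 1.33, 8.77, 0 and 0 FPKM, were listed at 0 in both 3911 and 3914 and highest in control mouse 7984. Among 4 tested endothelial genes the growth factor receptors Kdr, at 385, 464, 241 and 228 FPKM (-0.85), and Flt1, at 20.4, 25.1, 15.01 and 13.2 FPKM (-0.65), were lower, and Kdr is also expressed by retinal cells outside vessels. The other 2, Egfl7 at 4.89, 6.52, 7.58 and 8.54 FPKM (0.44, limma adjusted p = 0.141) and Esam at 4.48, 4.18, 6.36 and 5.34 FPKM (0.36, limma adjusted p = 0.258), lay higher without overlap and were not called, and Flt1 was not called with the trend removed (-0.26, limma adjusted p = 0.227). Among 3 tested pericyte genes Pdgfrb, at 21.5, 24.7, 11.8 and 10.3 FPKM (-1.0), and Myl9, at 19.6, 26.8, 12.4 and 20.4 FPKM (-0.50), were lower, but Myl9 overlapped between the pairs (limma adjusted p = 0.0499) and lost its call with equal medians. Of 2 tested pigment epithelium markers the thyroxine carrier Ttr was higher at 2.49, 1.0, 7.37 and 4.12 FPKM (1.31). The other, the retinol dehydrogenase Rdh5, stood at 3.80, 3.34, 2.13 and 2.03 FPKM (-0.57, limma adjusted p = 0.118), below without overlap, and was called lower with the trend removed (-0.78, limma adjusted p = 0.0351). Of 3 tested lens genes the crystallin Cryba1 was higher at 0.220, 0.326, 5.35 and 2.01 FPKM (1.78), and all of these levels were far below those of the retinal genes. Of 7 tested amacrine markers 1 was called higher and 1 lower, with a median of -0.45 (-0.16 with the trend removed). The neuropeptide Npy stood at 398, 128, 277 and 91.3 FPKM (-0.50 for the pair and 1.61 for genotype, each called) and overlapped between the pairs. Dab1 was the higher one, at 47.4, 52.2, 65.96 and 75.8 FPKM (0.50). None of 5 tested ganglion cell markers and 1 tested horizontal cell marker was called by limma.

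**Figure D4:**
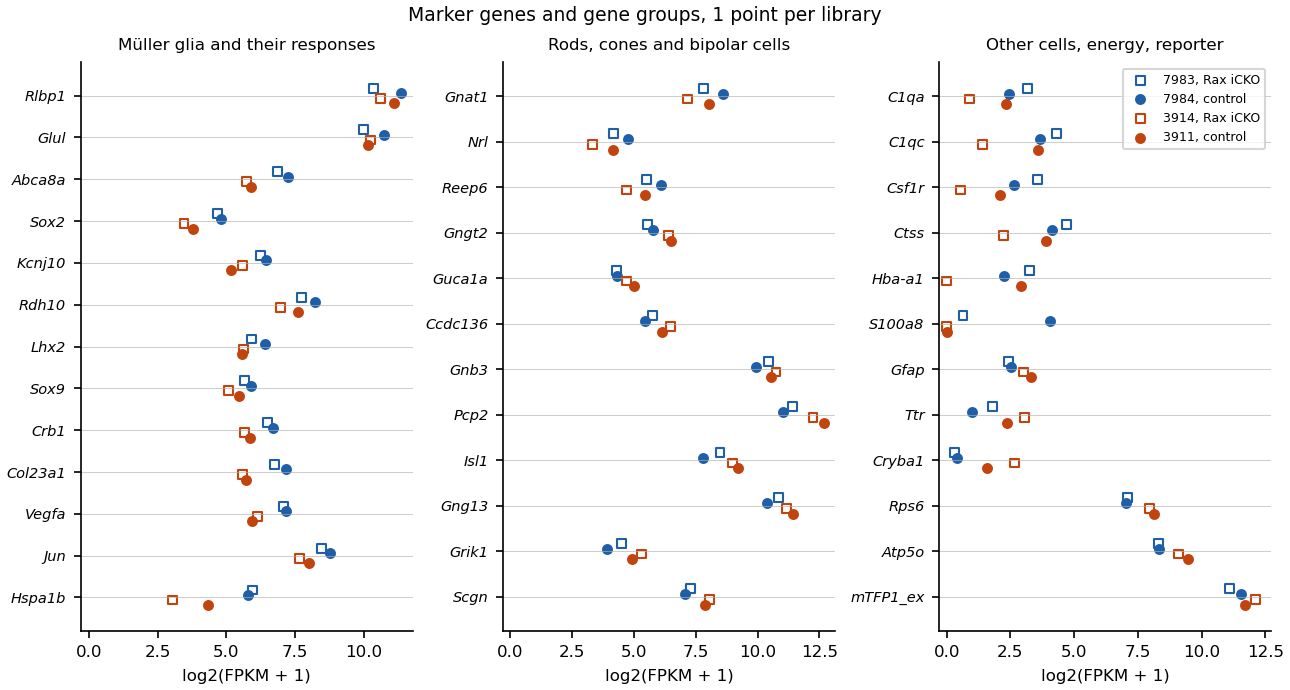
log2(FPKM + 1) in each of the 4 libraries for 37 genes of Müller glia, of rods, cones and bipolar cells, and of other groups, with 7983 and 7984 in blue, 3914 and 3911 in red, squares for Rax iCKO and circles for control. Abca8a and Sox2 are lower in red, Pcp2 and Isl1 are higher in red, and C1qa, C1qc, Csf1r, Ctss and Hba-a1 are lowest in the 1 Rax iCKO library of mouse 3914.

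Ribosomal protein and respiratory chain genes were the broadest groups to follow the number pair. Of 82 tested cytosolic ribosomal protein genes 51 were called higher and 0 lower, against 9.9% and 8.88% of all tested genes. Their median was 0.50, and 63 were separated upward without overlap, against 29.1% of all tested genes. Their share of all FPKM was 3.69%, 3.77%, 4.31% and 5.25% in the 4 libraries. Rps6, a small subunit protein, stood at 134, 131, 249.97 and 279 FPKM (0.99 ± 0.14; limma adjusted p = 8.91e-04). Rpl35 stood at 312, 333, 480.2 and 831 FPKM (0.97), Rps7 at 139.7, 144, 229 and 334 FPKM (0.96) and Rpl32 at 291, 360.4, 507 and 772 FPKM (0.95). Control mouse 3911 was the highest for each of these. Rpl41, the most abundant of the list, stood at 840.4, 971, 1048 and 1522 FPKM (0.48, limma adjusted p = 0.061), followed by Rps14 at 589, 672, 867 and 1219 FPKM (0.71).

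Of 81 tested nuclear genes of the respiratory chain and ATP synthase 48 were called higher and 1, Cox7a1, lower, against 9.9% and 8.88% of all tested genes. Their median was 0.50, and 71 were separated upward without overlap, against the same 29.1%. Atp5o, a subunit of the ATP synthase stalk, stood at 313, 317, 549.6 and 714 FPKM (0.99 ± 0.15; limma adjusted p = 0.00167). Atp5k stood at 431, 413, 657 and 876 FPKM (0.85), and the complex I subunits Ndufb9 and Ndufa2 at 358, 369, 607 and 697 FPKM (0.84) and 183, 214, 294 and 405 FPKM (0.80). The 2 most abundant members, Atp5b at 1083, 1046, 1404 and 1428 FPKM (0.41, limma adjusted p = 0.0958) and Ndufa4 at 877, 819.8, 1122 and 1491 FPKM (0.61, limma adjusted p = 0.0319), fell on either side of the threshold. Both lists hold short transcripts, with medians of 926 and 875 bases. With the trend removed 19 of 82 and 22 of 81 were higher, all of them among those called higher before, and 0 and 2 were lower. Over all 12216 genes in that setting 897 were higher and 853 lower. The list medians were then 0.22 and 0.25. Genotype medians were of opposite sign at -0.27 and -0.19, with 2 and 1 genes called lower in Rax iCKO, against 0.38% of all tested genes.

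Collagens were lower for 7 of 19 tested genes and higher for 0, against 8.88% and 9.9% of all tested genes, with a median of -0.56. Col23a1, a membrane collagen, stood at 106, 141, 47.1 and 51.8 FPKM (-1.29 ± 0.14; limma adjusted p = 1.35e-04). Col2a1, of cartilage and vitreous, stood at 92.7, 158, 50.1 and 73.1 FPKM (-0.99), Col18a1 at 28.8, 45.02, 18.4 and 20.4 FPKM (-0.86) and Col4a5, of basement membranes, at 8.89, 11.6, 5.59 and 5.51 FPKM (-0.77). The most abundant member, Col9a1, stood at 524, 717, 432 and 646 FPKM (-0.21, limma adjusted p = 0.333). Their median transcript had 5348 bases, and with the trend removed 1 gene was higher, 1 lower and the median was -0.023. Col23a1 was the 1 member still lower (-0.81, limma adjusted p = 0.00199).

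**Figure D5:**
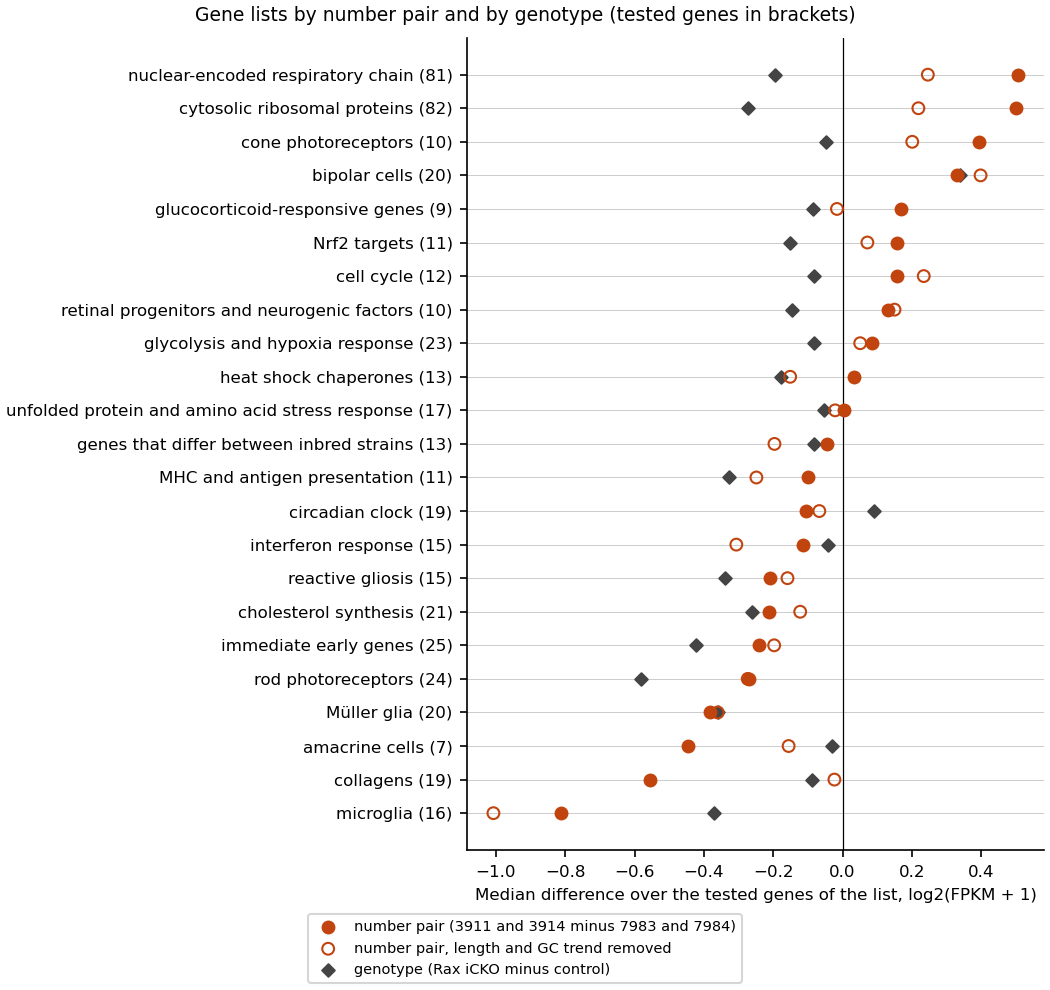
Median difference in log2(FPKM + 1) over the tested genes of each gene list, for the number pairs (filled circles), for the number pairs after the trend with transcript length and G and C content was removed (open circles) and for the genotypes (diamonds). Respiratory chain, ribosomal protein, cone and bipolar lists lie to the right for the number pair and microglia, collagens, amacrine and Müller glia lists to the left, and the collagens move to -0.023 when the trend is removed.

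Stress and activity genes changed in parts. Immediate early genes are switched on by neurons and glia within minutes of a stimulus or of dissection. Of 25 tested, 5 were called lower and 0 higher, against 8.88% and 9.9% of all tested genes. Without overlap 5 lay lower and 3 higher, against 26.8% and 29.1% of all tested genes. Jun stood at 350.4, 436, 201 and 256 FPKM (-0.78), Jund at 54.7, 68.3, 30.5 and 44.5 FPKM (-0.72), Fosb at 11.1, 18.5, 7.86 and 6.65 FPKM (-0.90) and Egr1 at 479.9, 575, 316 and 393 FPKM (-0.58). The pairs did not overlap for these 4, and Ctgf was the other gene called. Fos, at 929, 1269, 874 and 964 FPKM, and Dusp1, at 536, 843, 562 and 739.9 FPKM, were not called (limma adjusted p = 0.324 and 0.818). Among 13 tested heat shock chaperones the inducible Hspa1b, at 61.02, 53.5, 7.15 and 19.1 FPKM (-2.18 ± 0.26; limma adjusted p = 2.73e-04), and its near-identical neighbour Hspa1a, at 21.3, 25.1, 5.04 and 7.46 FPKM (-1.75), were lower along with their partner Dnajb1, at 51.1, 53.5, 27.8 and 34.2 FPKM (-0.74). The constitutive Hspa8, at 1345, 1273, 1575 and 1713 FPKM (0.33, limma adjusted p = 0.193), and Hsp90ab1, at 429, 499, 448 and 416 FPKM (-0.10, limma adjusted p = 0.671), did not pass. With the trend removed the same 3 heat shock genes were lower and 1 other was higher, while 5 immediate early genes were lower, 3 of them among the 5 and without Fosb and Egr1, and 1 was higher.

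Genes of reactive gliosis, the injury response of Müller glia, went both ways, 2 higher and 3 lower of 15 tested, against 9.9% and 8.88% of all tested genes. Gfap, the filament protein by which gliosis is usually read, stood at 4.38, 4.80, 7.14 and 8.94 FPKM (0.69 ± 0.21; limma adjusted p = 0.0365), and Serpina3n at 1.07, 1.29, 4.84 and 2.57 FPKM (1.07). In both the 2 libraries of 3911 and 3914 were the higher ones. The hyaluronan receptor Cd44 was lower at 16.2, 50.6, 9.26 and 12.1 FPKM (-1.36), with control mouse 7984 far above the rest, and the lipid receptor S1pr3 was lower at 124, 169, 63.9 and 72.1 FPKM (-1.08). Tgm2 was the other lower gene. The abundant members Vim (above) and Cp, at 144, 221, 134 and 204 FPKM (limma adjusted p = 0.611), were not called. Gfap was not called for genotype (-0.20, limma adjusted p = 0.682). With the trend removed 2 were higher and 3 lower, the same 2 and 2 of the same 3. The summed level of the 27 listed genes was 587, 856, 460.02 and 662 FPKM.

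Several smaller lists had few calls, to be read beside the 9.9% higher and 8.88% lower of all tested genes. Vegfa, which glia release to sustain vessels, stood at 134, 141, 69.4 and 59.6 FPKM (-1.08 ± 0.14; limma adjusted p = 5.37e-04). Ankrd37, another target of the hypoxia factor, went the other way at 63.7, 48.2, 103 and 124 FPKM (1.02), as did Ndrg1 at 31.4, 34.1, 49.1 and 46.8 FPKM (0.54) and the glycolytic enzyme Tpi1 at 978, 1037, 1355 and 1610.2 FPKM (0.55), which lost its call with the trend removed (limma adjusted p = 0.0689). In all, 3 of 23 tested genes of glycolysis and hypoxia were higher and 3 lower. The metallothioneins Mt1, at 203, 234, 349 and 365 FPKM (0.71), and Mt2, at 25.4, 21.7, 36.3 and 50.1 FPKM (0.84), were the 2 higher genes of 9 tested glucocorticoid-responsive ones. Of 17 tested genes of the unfolded protein and amino acid stress responses, the factor Atf4 at 76.2, 75.7, 113 and 100.4 FPKM (0.48) and asparagine synthetase Asns at 30.6, 30.8, 44.4 and 47.6 FPKM (0.57) were higher and the chaperone Hyou1 at 15.8, 18.9, 6.95 and 9.21 FPKM (-1.02) was lower. Hyou1 was still lower after the trend was removed and 3 other genes of that list were lower, but neither Atf4 (limma adjusted p = 0.0682) nor Asns (limma adjusted p = 0.0532) was called. Antigen presentation genes were lower for 3 of 11, H2-K1 at 27.3, 33.7, 10.6 and 19.5 FPKM (-1.02) and the peptide transporters Tap1 at 6.56, 7.80, 3.63 and 4.27 FPKM (-0.72) and Tap2 at 17.7, 19.3, 8.86 and 13.3 FPKM (-0.72). Irf7, at 3.08, 2.35, 0.686 and 1.17 FPKM (-0.95), was the 1 interferon gene called of 15. H2-K1 and Irf7 were still lower after the trend was removed, and Tap1 and Tap2 were not called.

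Of the genes that the study compared between genotypes, Gfap, Lhx2 and Sox9 were called for the number pair, as given above. Not called were Rax, Socs3, Cebpd and S100b, nor Vim and Glul, given above. The study showed Gfap, Lhx2, Sox9, S100b, Vim and Glul as stained protein in retinal sections, which is not the RNA of sorted cells. It reported more GFAP staining in Rax iCKO, whereas the genotype difference of Gfap RNA here was -0.20 (limma adjusted p = 0.682). Rax stood at 111, 189, 98.4 and 181 FPKM, with a pair difference of -0.12 (limma adjusted p = 0.565) beside a genotype difference of -0.82. Socs3, a feedback inhibitor of cytokine signalling, stood at 9.27, 29.1, 6.80 and 28.6 FPKM (-0.21 for the pair, limma adjusted p = 0.424), and Cebpd, a transcription factor, at 10.95, 23.2, 9.80 and 30.6 FPKM (0.12, limma adjusted p = 0.669). For all 3 the pairs overlapped and the genotypes did not. S100b, a glial calcium-binding protein, stood at 1.89, 2.53, 3.23 and 3.91 FPKM (0.52, limma adjusted p = 0.15).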

How the data were processed

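Cells positive for mTFP1 were sorted from the dissociated retina of 4 tamoxifen-treated mice, and per the labels RNA was taken up with the miRNeasy Micro kit, converted to full-length cDNA with the SMART-Seq HT kit and made into libraries with Nextera XT. The authors aligned the single-end reads to mm10, and the labels name TopHat2 2.1.1, Bowtie2 2.2.8, SAMtools 0.1.18 and Cuffdiff 2.2.1. The deposited values are FPKM per gene symbol and library, already divided by transcript length and library total, with no counts and no strand setting given. Values were set to log2(FPKM + 1), genes with a mean of at least 1 FPKM were kept, and number pair and genotype were fitted together in limma 3.58.1 (R 4.3.3) with a variance trend. The fit was tested on simulated data, with normal noise drawn independently for each gene and library and 200 changed genes among 12363. At a log2 difference of 1 it called 198 of the 200, and 35 unchanged genes with them. At a log2 difference of 2 it called 200 of the 200 and 40 unchanged genes. The calls therefore hold some false ones, and errors shared between genes were not simulated.

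Named genes were, by rule, the 12 largest called differences in each direction at a mean of at least 5 FPKM (Mir, Snor, Gm and Rik entries left out), up to 4 called members and the 2 most abundant of each described list, and the genes the study names with the reporter and Cre. The comparison, the 37 lists and the rule were chosen with earlier results of these data known. Lengths and composition came from the longest coding transcript of GENCODE M21, or the longest transcript of a gene with none. Alternatives covered the pseudocount, filters, scaling, variance trend, model, left-out libraries and a trend with length and composition. Depth is not stated, so no interval on single values is given. Libraries come from different mice. Some genes that the rule names are not reported here.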

Additional observations from a re-analysis of the deposited data

Results flagged for a closer look

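For 8 genes the pair difference had opposite signs in the 2 genotypes, which was not tested because each genotype has 1 library per number pair. The values are 3911 minus 7984 in controls, then 3914 minus 7983 in Rax iCKO, on the log2(FPKM + 1) scale. Blood genes gave the widest gaps: Hba-a1 0.65 and -3.25, and Hbb-b1 0.76 and -2.42. Among glial and stress genes the differences were -0.60 and 0.26 for Glul, -0.28 and 0.27 for Rlbp1, -0.25 and 0.10 for Apoe, 0.39 and -0.15 for Cebpd, -0.19 and 0.069 for Dusp1, and -0.26 and 0.061 for Hsp90ab1. None of the 8 was called by limma for the pair, with adjusted p values from 0.15 for Hba-a1 to 0.996 for Rlbp1.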

How the results depend on the processing

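Calls between the number pairs outnumbered those between the genotypes under each alternative tried, but the counts moved. Genes higher and lower in 3911 and 3914 numbered 336 and 410 with no filter on mean FPKM, 281 and 655 without the variance trend, 86 and 260 with genotype left out of the model, 1946 and 1005 with equal medians, 2023 and 1467 with the trend in G and C removed, and 403 and 452 with the length and G and C trend removed and short entries kept in. Leaving out 1 library, which leaves only the compared factor in the model, gave 9 to 21 higher and 30 to 118 lower. Higher and lower in Rax iCKO were 60 and 126 genes at a pseudocount of 0.1, 4 and 5 with no filter, 59 and 136 at a mean of at least 5 FPKM, 164 and 170 with quantile normalization, 63 and 171 with equal medians, 5 and 4 without the variance trend, 1 and 2 with the number pair left out, 274 and 330 with the length trend, 306 and 416 with the G and C trend and 54 with both trends removed, 3 and 8 with both removed and short entries kept, and 203 and 336 with transcripts of under 300 bases left out and no trend removed. Leaving out 1 library gave 8 to 14 and 5 to 12. Genes without overlap that were at least 2-fold higher numbered 135 with equal medians instead of 83. The prior degrees of freedom were 52.7 once short transcripts were left out, against 11.3 with them in, and 9.03 with both trends removed. The trend and short-transcript settings were chosen after seeing the data.

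Of the 120 called genes in the text, 117 kept their call with equal medians, 106 with quantile normalization, 90 of 117 with both trends removed and 35 with genotype left out. Lost with equal medians were Myl9, Erdr1 and Cox7a1, and lost with both trends removed were Apoo-ps, Lhx2, Sox9, Guca1a, Gng13, Csf1r, Flt1, Neurod4, Dll1, Cdc20, Pcna, Fosb, Egr1, Asns, Atf4, Tap1, Tap2, Per3, Hlf, Tpi1, Srebf2, Erdr1, Ndufa4, Col2a1, Col18a1, Col4a5 and Tgm2. Among genes not called, the sign changed for Apoe (0.0049), Rlbp1 (0.077) and Dusp1 (0.019) with equal medians, for Sag (-0.060) and Xist (0.094) with quantile normalization, for Apoe (0.082), Rlbp1 (0.066), Dusp1 (0.035) and Rax (0.023) with the G and C trend removed, for Dbi (-0.028), Cp (0.084) and Xist (0.10) with the length trend removed and for Dbi (-0.066) with both removed. With 1 library left out, so that genotype is no longer balanced between the pairs, the range over the 4 libraries crossed 0 for Npvf (-2.38 to 4.80), Xist (-2.43 to 2.22), Npy (-1.32 to 0.32), Rlbp1 (-0.51 to 0.51), Glul (-0.56 to 0.21), Apoe (-0.26 to 0.11), Dbi (-0.055 to 0.64), Sag (-0.053 to 0.65), Pde6g (-0.68 to 0.17), Hba-a1 (-2.75 to 0.16), Hbb-b1 (-2.24 to 0.58), Dusp1 (-0.39 to 0.27), Hsp90ab1 (-0.21 to 0.0079), Cp (-0.41 to 0.20), Col9a1 (-0.50 to 0.075), Rax (-0.56 to 0.32), Socs3 (-1.17 to 0.75) and Cebpd (-0.66 to 0.90). Between 91 and 110 of the 120 calls were lost or changed sign in these settings. The cause of these shifts was not tested.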

Other observations

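Small RNA entries were often called, but on thin values. Of 34 tested microRNA entries 10 were called higher and 17 lower in 3911 and 3914, against 9.9% and 8.88% of all tested genes. Of these 27, 18 were above 0 in a single library. Of 29 tested snoRNA entries 11 were called higher and 10 lower, 10 of them above 0 in a single library. Without overlap 2 microRNA entries lay higher and 7 lower, and 5 snoRNA entries higher and 3 lower, against 29.1% and 26.8% of all tested genes. The entry Mir6236, chosen after its values were seen, stood at 367, 587, 39.5 and 79.3 FPKM in mice 7983, 7984, 3914 and 3911 (-3.03, limma adjusted p = 1.68e-07), and Rmrp, the RNA of a mitochondrial and nucleolar ribonuclease and likewise chosen after its values were seen, at 18.4, 41.97, 2.67 and 5.36 FPKM (-2.58, limma adjusted p = 4.42e-06). Both were lower in 3914 and 3911 without overlap, as were Rpph1 and Lars2. Replication-dependent histone entries were higher for 2 and lower for 3 of 18, near the 9.9% and 8.88% of all tested genes.

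Over all tested genes 9.9% were called higher and 8.88% lower, and several of the lists below lie near those shares. Genes of cholesterol synthesis were lower for 3 of 21, Dhcr7 at 33.3, 45.98, 19.7 and 24.4 FPKM (-0.81), Srebf2 at 39.4, 57.3, 27.6 and 28.6 FPKM (-0.74, and with the trend removed -0.22, limma adjusted p = 0.258) and Insig1 at 25.7, 37.6, 13.3 and 25.1 FPKM (-0.73), and higher for 1, Fdps at 55.4, 61.5, 80.02 and 99.4 FPKM (0.60). In the circadian clock list the output factors Per3, at 26.3, 22.8, 18.2 and 11.8 FPKM (-0.70), and Hlf, at 35.6, 30.8, 27.9 and 17.04 FPKM (-0.58), were the 2 lower of 19, and 0 were higher. With the trend in length and composition removed no clock gene was called by limma. The glutathione enzyme Gclc, at 22.2, 20.97, 16.3 and 10.2 FPKM (-0.70), was the 1 gene called of 11 Nrf2 targets. In the cell cycle list Cdc20, at 1.07, 1.09, 3.52 and 2.18 FPKM (0.87), and the replication clamp Pcna, at 53, 51.97, 77.3 and 74.04 FPKM (0.52), were higher, 2 of 12, and neither was called with the trend removed (limma adjusted p = 0.0622 and 0.18).

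Of 13 tested genes known to differ between inbred strains, 3 were lower, the polarity gene Crb1 at 88.6, 103, 49.8 and 56.5 FPKM (-0.84), Cyp2d22 at 34.3, 49.9, 27.01 and 23.9 FPKM (-0.68) and Erdr1 at 25.9, 23.6, 14.9 and 18.5 FPKM (-0.55, not called with the trend removed, limma adjusted p = 0.058, or with equal medians, limma adjusted p = 0.0534), and Glo1 was higher at 494, 528, 739 and 858 FPKM (0.64). Called genes were spread over all chromosomes, at 17.0% to 21.2% of the tested genes on each of 20. Among neighbouring tested genes 465 pairs were both called, 273 of them in the same direction. Npvf, a neuropeptide gene called for genotype and chosen after its values were seen, stood at 67.8, 0, 229.97 and 0.590 FPKM in the same order, so that its pair difference of 1.21 (limma adjusted p = 0.00548) came with overlapping pairs.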
